A study of Mus musculus with 12 samples.

Results

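The crypts of the small intestine hold the stem cells that renew the epithelium, and 10 genes of these cells and of the Wnt pathway that maintains them were followed here. They were Lgr5, Olfm4, Ascl2, Smoc2, Axin2, Rnf43, Znrf3, Sox9, Cdca7 and Tnfrsf19, chosen by name, and each was read from its single probe set that names 1 gene, so the 10 are part of 19937 genes measured in this way. The 12 samples are total RNA of the small intestine of wild-type male FVB mice, given in the labels as 8 weeks old, each on 1 Affymetrix whole-transcript array. The diets lasted 8 weeks. In the Low P/S diet, given to 6 mice, polyunsaturated fatty acids were low relative to saturated ones, and the other 6 mice ate a control high-fat (HF) diet (Control). The amount of fat in the Low P/S diet is not given in the labels, and no group on low-fat chow is included here. The labels give neither the part of the small intestine, nor whether the muscle wall was kept, nor the time of dissection.

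Wnt proteins bind Frizzled receptors and their Lrp5 or Lrp6 co-receptor, which stops the destruction complex from degrading beta-catenin, and beta-catenin then acts with TCF/LEF factors to switch on target genes. R-spondins strengthen the signal by binding Lgr receptors and drawing the membrane E3 ligases Rnf43 and Znrf3 away from Frizzled. Several targets, among them Axin2, Rnf43 and Znrf3, encode inhibitors of the same pathway, so that their transcripts serve as readouts of Wnt activity in crypts.

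None of the members passed the test of the diets. Of the 10 members, 9 were bright enough to be tested, at or above a geometric mean intensity of 85.6, the 40th percentile of all genes, and Ascl2 was not. Of these 9, 0 passed at a Benjamini-Hochberg adjusted p under 0.05 in limma, against 25.7% of the 11962 genes tested, and 0 had an unadjusted p under 0.05, against 38.1% of genes. Their adjusted p-values lay between 0.159 and 0.984. With 4 differences above and 5 below 0, their median difference was -0.0042 on the log2 scale, beside 0.022 for all tested genes. For no member did the arrays of the diets separate, as they did for 10.8% of tested genes. A difference is the mean log2 value on Low P/S arrays less that on Control arrays, ± after a difference is limma's standard error, and n is 6 arrays per diet. In whole tissue, fewer cells of a type and less RNA per cell cannot be told apart.

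Array medians of the deposited intensity lay between 91.9 and 99.5, and correlations of log2 values between arrays between 0.976 and 0.994. The first principal component of the tested genes held 54.1% of the variance and separated the diets. On it the Low P/S arrays ran between 5.48 and 20.2, and the closest Control arrays were 1 and 2, at -5.89 and -2.90, while the other Control arrays ran between -21.1 and -12.8. Leaving out both of these Control arrays brought no member past the threshold. The number of arrays limits the precision, and 6 of the 10 members had a geometric mean intensity under 150, near the dim limit. A background signal kept in the deposited values would make the fold changes of such dim genes look smaller than they are, and its size is not known.

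**Figure D1:**
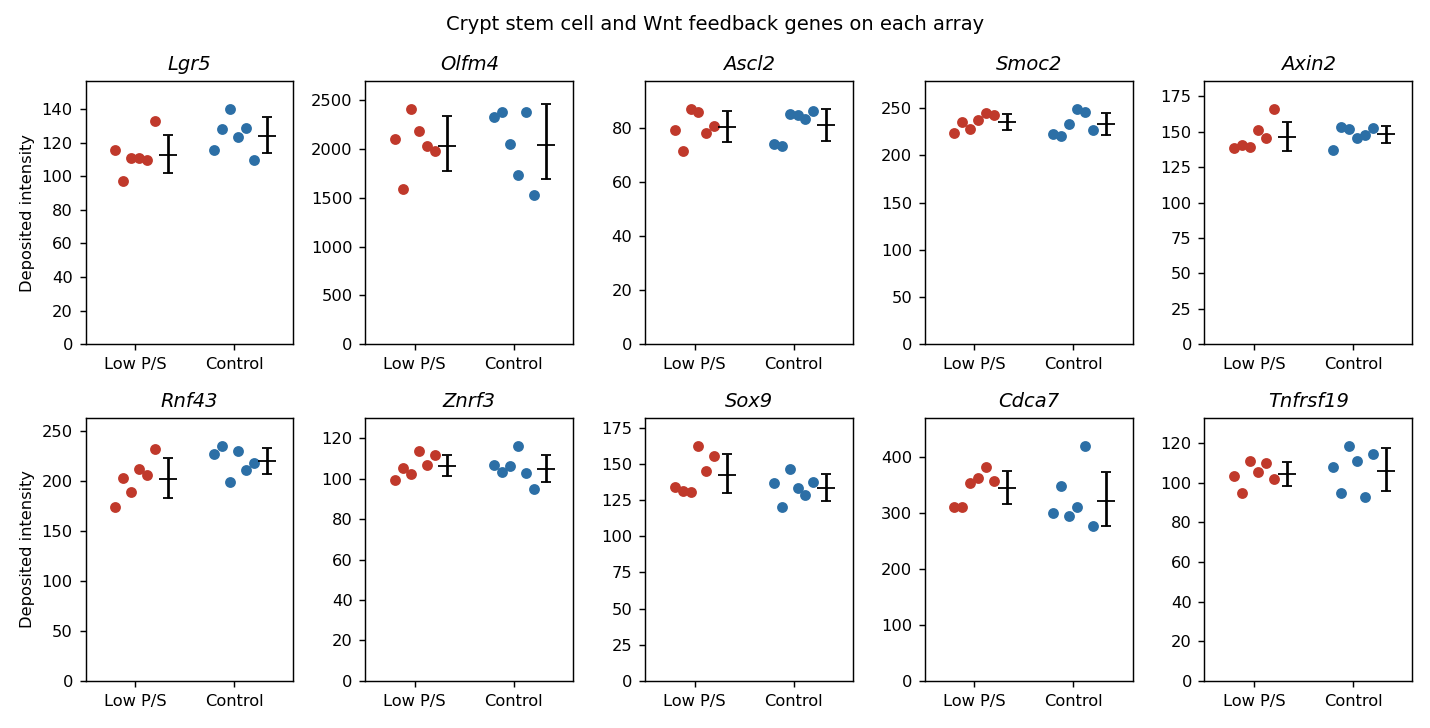
Deposited intensity (vertical axes, linear, each starting at 0) of the 10 members on the 6 Low P/S arrays (red) and the 6 Control arrays (blue). Black marks are geometric means with 1 SD of the log2 values, and in every panel the arrays of the diets overlap.

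The stem cell markers came first among the members. Lgr5, the R-spondin receptor that marks crypt base columnar stem cells, had intensities of 97.3 at the lowest, 111 at the median and 133 at the highest on Low P/S arrays, against 110, 126 and 140 on Control arrays. Only 1 of 6 Low P/S arrays lay above the Control median, and 2 lay below the lowest Control array. The difference of -0.14 ± 0.07 (95% interval -0.29 to 0.011) was the largest in size among the tested members on the deposited scale, and it did not pass (limma, adjusted p = 0.159). In fold terms the interval reached from 1.22-fold lower to 1.01-fold higher on the Low P/S diet. Low P/S array 6 held the highest Low P/S value, and without it Lgr5 passed as lower (-0.19, adjusted p = 0.0472), in a fit that called 8.17% of genes lower.

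Olfm4, a secreted glycoprotein made in large amount by the stem cells of the mouse small intestine, gave 1595 at the lowest, 2071 at the median and 2410 at the highest on Low P/S arrays, and 1535, 2195 and 2386 on Control arrays. Both diets covered nearly the same range, and the geometric means were 2038 and 2044. The difference was -0.0042 ± 0.11, with a 95% interval of -0.25 to 0.24 (limma, adjusted p = 0.984), so the arrays allow anything from 1.19-fold lower to 1.18-fold higher. The width of the interval goes with the spread between mice: the within-diet SD of Olfm4 was 0.24, larger than that of 97.0% of tested genes. Olfm4 is known as a target of Notch signalling in mouse crypts. Its promoter window in RefSeq (GRCm38.p6, chr14:80000052-80000351, plus strand) is shown because it held a match to the RBPJ core TGGGAA, printed in capitals, whose first base lies 12 bases before the start of the gene:
Olfm4: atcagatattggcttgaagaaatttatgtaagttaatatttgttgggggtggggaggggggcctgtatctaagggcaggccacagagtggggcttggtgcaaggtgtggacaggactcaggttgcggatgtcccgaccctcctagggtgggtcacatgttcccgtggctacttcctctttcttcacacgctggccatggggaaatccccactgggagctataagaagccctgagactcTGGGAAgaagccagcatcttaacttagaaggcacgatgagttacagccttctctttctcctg
Of the 32851 promoter windows of this length, 25.6% held this hexamer on either strand, and among the 6 members with a window Olfm4 and Cdca7 did. A match of letters is a description of the sequence and shows no binding.

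Smoc2, a secreted calcium-binding matrix protein enriched in Lgr5-positive cells of the mouse, had intensities between 224 and 245 with a median of 236 on Low P/S arrays, and between 221 and 249 with a median of 230 on Control arrays. Its within-diet SD of 0.063 was among the smallest, with 7.13% of tested genes below it. The difference of 0.016 ± 0.05 (95% interval -0.084 to 0.11, limma adjusted p = 0.834) therefore came with one of the narrowest intervals, from 1.06-fold lower to 1.08-fold higher. Ascl2, a basic helix-loop-helix factor that acts with beta-catenin to set stem cell identity in the mouse, was dim, with 71.3 at the lowest, 79.9 at the median and 86.8 at the highest on Low P/S arrays and 73.3, 84.0 and 86.1 on Control arrays. It was left out of the main fit. With no filter on dim genes its difference was -0.012 ± 0.06 (limma, adjusted p = 0.909).

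Among the feedback inhibitors, Axin2, a scaffold of the destruction complex that Wnt signalling induces, gave intensities of 138 to 166 with a median of 143 on Low P/S arrays and of 137 to 154 with a median of 150 on Control arrays. The highest value of all, on Low P/S array 6, and the lowest, on Control array 1, both ran against the sign of the difference, which was -0.015 ± 0.05 (95% interval -0.13 to 0.097, limma adjusted p = 0.859). In fold terms this interval reached from 1.09-fold lower to 1.07-fold higher.

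Rnf43, the first of the paired E3 ligases that remove Frizzled receptors from the cell surface, had 174 at the lowest, 204 at the median and 232 at the highest on Low P/S arrays, against 199, 222 and 235 on Control arrays. Of the Low P/S arrays, 2 lay below every Control array and 1 above the Control median. Its difference of -0.12 ± 0.07 (95% interval -0.26 to 0.015) did not pass (limma, adjusted p = 0.179). Quantile normalization, which called 13.3% of genes lower against 7.87% on the deposited scale, made it pass as lower (-0.17, adjusted p = 0.0389). Znrf3, the second ligase, ran from 99.3 to 114 with a median of 106 on Low P/S arrays and from 95.04 to 116 with a median of 105 on Control arrays. The difference of Znrf3 was 0.021 ± 0.05 (95% interval -0.092 to 0.13, limma adjusted p = 0.803).

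**Figure D2:**
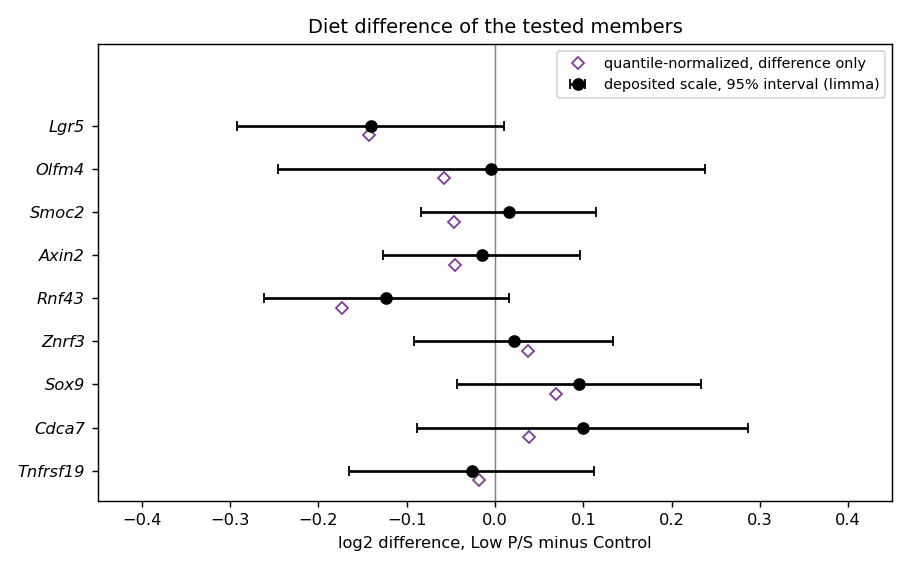
Diet difference (horizontal axis, log2, Low P/S minus Control) of the 9 tested members. Black points with bars are limma estimates on the deposited scale with 95% intervals, all of which include 0, and purple diamonds are the differences after quantile normalization, where Rnf43 reached -0.17.

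The remaining members are targets of Wnt signalling in the crypt. Sox9, a transcription factor of crypt cells that Paneth cells also need, had 130 at the lowest, 140 at the median and 162 at the highest on Low P/S arrays and 120, 135 and 146 on Control arrays. Of the Low P/S arrays, 2 lay above every Control array, and the difference was 0.095 ± 0.07 (95% interval -0.043 to 0.23, limma adjusted p = 0.302). Without Low P/S array 4, its highest, it was 0.057. Cdca7, a nuclear protein known as a Myc-responsive gene and, from human cells, as a partner of the chromatin remodeller HELLS, had 310, 356 and 381 on Low P/S arrays and 277, 305 and 420 on Control arrays in the same order. All 6 Low P/S arrays lay above the Control median, yet Control array 5 was the highest of the 12. The difference of 0.099 ± 0.09 (95% interval -0.088 to 0.29) did not pass (limma, adjusted p = 0.435). It was 0.18 without Control array 5, 0.056 without Control array 6 and 0.038 with quantile normalization, and passed in none of these.

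Tnfrsf19, also called Troy, a receptor of the tumour necrosis factor family that is a Wnt target in mouse stem cells, gave 94.6 to 111 with a median of 104 on Low P/S arrays and 92.9 to 118 with a median of 109 on Control arrays. Its difference was -0.027 ± 0.07 (95% interval -0.17 to 0.11, limma adjusted p = 0.797). Among the 6 members with a RefSeq promoter window, which spans 250 bases before to 50 after a start, Tnfrsf19 was the one with the TCF/LEF core CTTTGA on either strand, which 16% of all windows held. The match lies in the window of its second start (GRCm38.p6, chr14:61037938-61038237, minus strand), 201 bases before that start, and reads as the reverse complement of the core, in capitals:
Tnfrsf19: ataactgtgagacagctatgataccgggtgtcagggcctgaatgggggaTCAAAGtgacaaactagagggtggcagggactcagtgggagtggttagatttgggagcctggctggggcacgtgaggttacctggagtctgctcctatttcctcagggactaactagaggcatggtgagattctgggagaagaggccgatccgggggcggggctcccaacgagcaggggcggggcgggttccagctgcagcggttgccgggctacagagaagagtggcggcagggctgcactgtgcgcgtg
Windows of Ascl2, Rnf43, Axin2, Cdca7 and Olfm4 held no such hexamer, which says only that these letters are not within these 300 bases.

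The members were also compared with each other, by the log2 ratio of each pair on every array, to ask whether the diet moved them unequally. Of 36 pairs, 0 passed after adjustment over the pairs, and 4 had an unadjusted exact permutation p under 0.05. Lgr5 over Sox9 averaged -0.34 on the Low P/S diet and -0.11 on Control, a difference of -0.24 (two-sided exact permutation p = 0.0238, adjusted p = 0.303). Rnf43 over its relative Znrf3 averaged 0.92 and 1.07, a difference of -0.14 (exact permutation p = 0.0368, adjusted p = 0.303). The smallest p that 6 against 6 arrays can give is 0.00216.

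Whether mice high in one member were high in another was examined on deviations from the diet means over the 12 arrays. Pearson's r of the 36 pairs ran from -0.50 to 0.60 with a median of 0.24, and 26 pairs were positive. None passed adjustment over the pairs by Pearson's r or Spearman's rho in permutations within diets (100000 draws), and 0 had an unadjusted p under 0.05 for r. Smoc2 and Znrf3 had the highest r, 0.60 (rho = 0.52, permutation p = 0.0552 and 0.112, adjusted p = 0.573 and 0.599), which was 0.47 without the 2 arrays farthest from the Smoc2 median. For Rnf43 and Znrf3 r was 0.56 (rho = 0.64, permutation p = 0.0539 and 0.0385, adjusted p = 0.573 and 0.599), and 0.38 without the 2 arrays farthest from the Rnf43 median. Within the diets this r was 0.90 on Low P/S and 0.22 on Control, 6 arrays each. Cdca7 and Tnfrsf19 had the lowest r, -0.50 (rho = -0.41, permutation p = 0.159 and 0.222, adjusted p = 0.573 and 0.599), which was -0.067 without the 2 arrays farthest from the Cdca7 median. By diet it was 0.70 on Low P/S and -0.89 on Control, 6 arrays each, so the pooled r joins opposite signs.

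**Figure D3:**
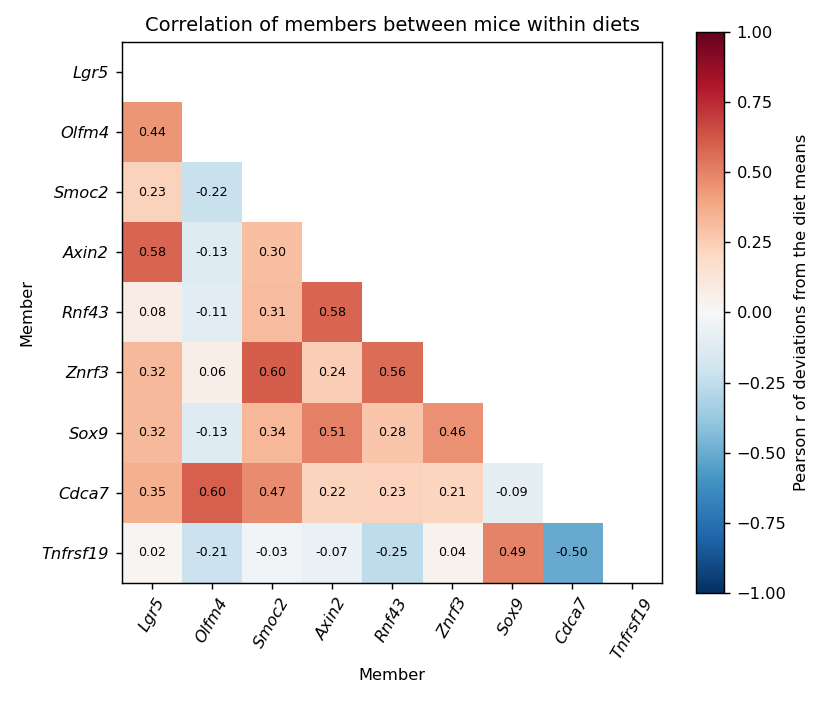
Pearson's r between the 9 tested members (both axes) across 12 arrays after the mean of each diet was subtracted, printed in each cell and coloured from -1 (blue) to 1 (red). Most pairs are weakly positive, from -0.50 for Cdca7 and Tnfrsf19 to 0.60 for Smoc2 and Znrf3, and no pair passed adjustment.

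As a description, the genes most like each member among all tested genes were read from the same deviations over 12 arrays. Such a search over all genes finds high values for any gene, and the arrays share their scaling. Nearest to Lgr5 stood Ro60 (r = 0.85), to Olfm4 Zfp930 (r = 0.95), to Smoc2 Glud1 (r = 0.87) and to Axin2 the receptor gene Notch1 (r = 0.86). Rnf43 was nearest to Zbtb8a (r = 0.92) and its 3 nearest genes included Nr5a2 (r = 0.89), a nuclear receptor of crypts in the mouse. For Znrf3 the nearest was Eef1akmt2 (r = 0.89), for Sox9 Rasd2 (r = 0.88), for Cdca7 the mitotic ubiquitin-conjugating enzyme gene Ube2c (r = 0.89) and for Tnfrsf19 Bean1 (r = 0.92). No other member appeared among the 3 nearest genes of any member.

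Around the members, the counts of Wnt pathway genes that passed depended on the scale. In the 6 Wnt lists together, 76 genes besides the members were tested, of which 6 rose, 4 fell and 66 did not pass on the deposited scale. That makes 13.2% passing, beside 25.7% of all tested genes, and a median difference of -0.038 beside 0.022. Taken by direction, both counts were below the 17.8% of all tested genes that rose and the 7.87% that fell. With quantile normalization 3 rose and 15 fell, which makes 23.7% beside 28.8% of all tested genes, with a median of -0.066 beside -0.0061. On that scale the 15 falls of 76 are a larger share than the 13.3% of all tested genes called lower. The 3 rises are a smaller share than the 1853 of 11962 genes called higher. Of 18 genes of Wnt ligands, R-spondins and their secretion, 7 were below the dim limit and could not be tested. Of the 11 tested, 0 passed in limma on the deposited scale, while quantile normalization called 1 lower. Wnt10a had the smallest p, at geometric mean intensities of 95.9 on the Low P/S diet and 108 on Control (limma, adjusted p = 0.0708). Wnt3, the ligand that Paneth cells supply to stem cells in the mouse, was below the dim limit with 81.2 and 84.0.

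Of 14 tested receptor genes, 1 rose and 13 did not pass, and quantile normalization gave 1 higher and 2 lower. The 7.14% that rose on the deposited scale stands beside 17.8% of all tested genes. Ror2, a receptor for Wnt5a, rose 1.17-fold (0.22 ± 0.06, limma adjusted p = 0.0111) with no overlap between the diets. Lgr4, the relative of Lgr5 found throughout the crypt, had geometric means of 879 and 881 and a difference of -0.0044 (adjusted p = 0.965), and the co-receptor genes Lrp5 and Lrp6 differed by -0.024 and -0.040 without passing. Of 13 secreted antagonists 7 were below the dim limit, and of the 6 tested 1 rose and 5 did not pass. This 16.7% is near the 17.8% of all tested genes that rose. The one that rose was Dkk4 (0.20 ± 0.06, adjusted p = 0.0295), a call that ended with an ordinary variance and when Low P/S array 1, 4, 5 or 6 or Control array 4 or 5 was left out (adjusted p up to 0.0690).

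In the cytoplasmic relay 1 of 19 genes rose and 18 did not pass on the deposited scale, whereas quantile normalization gave 0 higher and 5 lower. Of all tested genes 17.8% rose on the deposited scale, beside 5.26% here, and 13.3% fell with quantile normalization. The gene that rose was the kinase gene Gsk3a (0.22 ± 0.07, limma adjusted p = 0.0316), whose call ended with quantile normalization, median centring or an ordinary variance, and when Low P/S array 1 or 2 or Control array 3, 4, 5 or 6 was left out (adjusted p up to 0.0751). Among 12 genes listed as nuclear partners of beta-catenin, co-repressors included, 3 fell, 0 rose and 9 did not pass. That is 25% lower beside 7.87% of all tested genes. With quantile normalization 6 of them fell, beside 13.3% of all tested genes. Tcf7l2, the TCF factor that the intestinal epithelium depends on, was 1.24-fold lower, at 423 on the Low P/S diet and 527 on Control (-0.32 ± 0.06, adjusted p = 0.00142). The Groucho-type co-repressor genes Tle3 and Tle4 were 1.30-fold and 1.23-fold lower. The list thus mixes repressors with factors that act with beta-catenin, and its count gives no direction of pathway activity. The diets did not overlap for Tcf7l2, Tle3 and Tle4, and the calls held in each of the 23 alternatives.

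Other Wnt target genes of crypts rose in 3 of 16 cases and fell in 1, and 12 did not pass, while quantile normalization gave 1 higher and 1 lower. The 25% passing on the deposited scale is near the 25.7% of all tested genes, of which 17.8% rose and 7.87% fell. Cd44, a hyaluronan receptor gene, rose 1.29-fold (0.36 ± 0.07, limma adjusted p = 0.00213), and in whole tissue the cells behind this rise cannot be told. The cyclin gene Ccnd2 rose 1.23-fold (adjusted p = 0.0148), though not with quantile normalization (adjusted p = 0.0789). Myb also rose (0.20 ± 0.07, adjusted p = 0.0449), but its call ended under 14 of 23 alternatives. The tetraspanin gene Tspan5 was 1.44-fold lower (adjusted p = 2.35e-05). Of the 12 that did not pass, the Wnt inhibitor genes Nkd2 and Apcdd1 differed by -0.15 and -0.14 (limma, adjusted p = 0.0832 and 0.0692), Nkd1 by -0.10, Sp5 by -0.030 and Myc by 0.11. Notum and Lef1 were below the dim limit.

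Of 17 other stem cell markers 2 rose, 2 fell and 13 did not pass. That makes 23.5% passing, near the 25.7% of all tested genes, of which 17.8% rose and 7.87% fell. Aqp4, a water channel, rose 1.33-fold (0.41 ± 0.08, limma adjusted p = 0.00177) and the cell cycle kinase gene Cdk6 1.19-fold (adjusted p = 0.0308). Sectm1b was 2.58-fold lower, with 882 on the Low P/S diet and 2272 on Control (-1.36 ± 0.14, adjusted p = 1.46e-05). Prss23 was 1.11-fold lower (adjusted p = 0.0392). The Cdk6 call ended with an ordinary variance and without Low P/S array 1, 4, 5 or 6 or Control array 3, 5 or 6 (adjusted p up to 0.0762). The Prss23 call ended with median centring and without Low P/S array 1, 2, 3 or 6 or Control array 1, 3, 4, 5 or 6 (adjusted p up to 0.0907). Bmi1, Lrig1 and Tert, which mark slow-cycling or reserve cells in the mouse, differed by 0.013, 0.049 and 0.046 without passing. Hopx, another such marker, differed by 0.15 (95% interval 0.036 to 0.27) with 4 of 6 Low P/S arrays above every Control array, and it too did not pass (limma, adjusted p = 0.0519). Of 15 tested Notch genes 14 did not pass and 1 fell, the ligand gene Dll4 (1.16-fold lower, limma adjusted p = 0.0196). This 6.67% lower is near the 7.87% of all tested genes.

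Genes of proliferating cells, which in this tissue lie mostly in the crypt above the stem cells, passed as higher in most cases. Of 29 tested, 21 rose, 0 fell and 8 did not pass, which is 72.4% beside a background of 17.8% for rises, with a median difference of 0.26. The replication helicase gene Mcm2 rose 1.82-fold, at 341 on the Low P/S diet and 187 on Control (0.86 ± 0.14, limma adjusted p = 5.53e-04). The mitotic kinase genes Bub1 and Plk1 rose 1.36-fold and 1.19-fold. The count was 17 with quantile normalization, 8 with an ordinary variance per gene and 12 without Control array 4. The mean log2 value of the 29 genes was 8.03 ± 0.11 on Low P/S and 7.73 ± 0.18 on Control arrays (SD, n = 6), and the arrays of the diets overlapped.

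**Figure D4:**
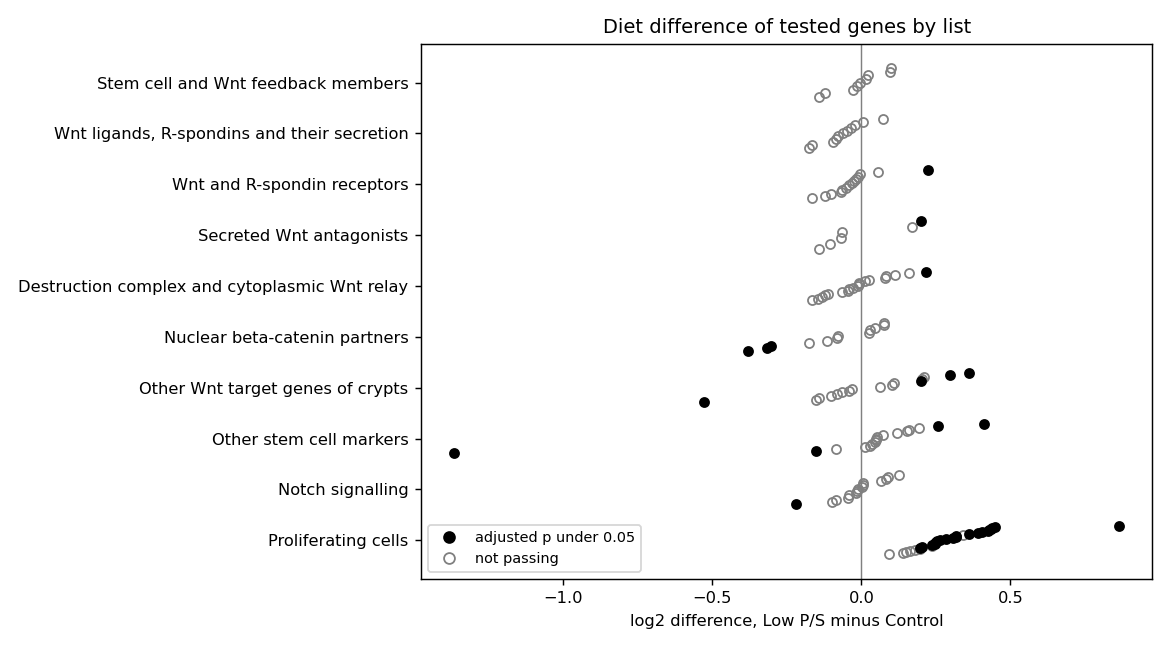
Diet difference (horizontal axis, log2, Low P/S minus Control) of every tested gene in the lists of the vertical axis, with filled points for an adjusted p under 0.05. The 9 members lie between -0.14 and 0.099 with none filled, while 21 of 29 proliferating genes are filled to the right of 0.

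The members were also set against the proliferating genes array by array, as a description with no test, since this comparison was chosen after the values of both were seen. On each array the mean log2 value of the 29 proliferating genes was taken from that of each member. That mean was itself higher by 0.30 on the Low P/S diet, so a gene with no difference between the diets has a ratio lower by the same amount. Each ratio difference is the member's own difference less 0.30. The negative sign of all 9, their sizes and their order follow from this and add nothing to the members' own differences. The ratio differed by -0.44 for Lgr5 and by -0.43 for Rnf43, whose own differences were -0.14 and -0.12 and did not pass. Olfm4 and Axin2, whose own differences lay near 0, had ratios of -0.31 and -0.32. Sox9 and Cdca7, with the largest positive differences of their own among the members, had the smallest ratio differences in size, -0.21 and -0.20.

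**Figure D5:**
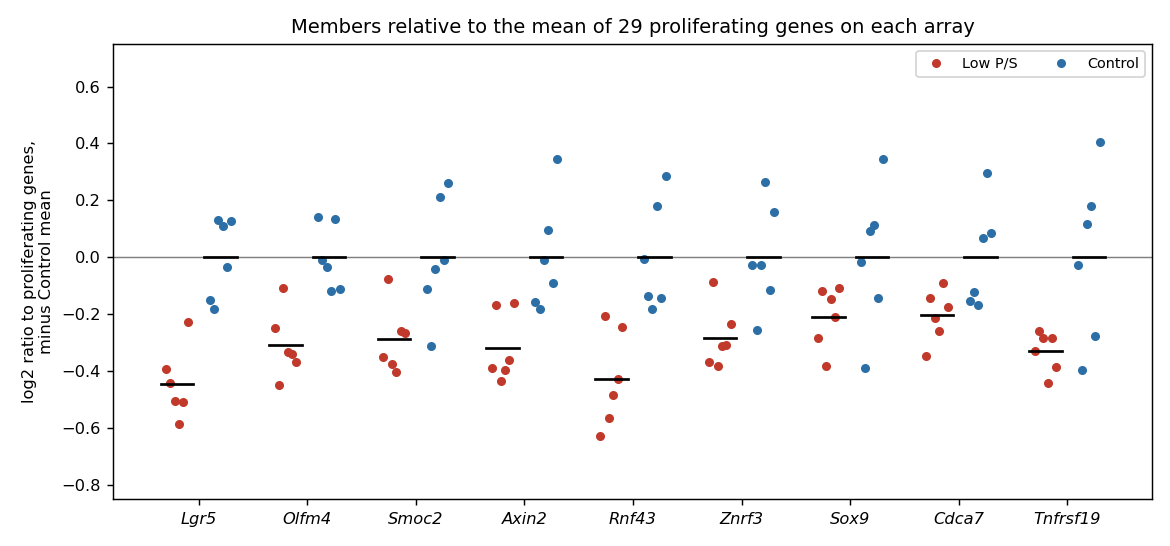
Log2 ratio of each tested member to the mean of 29 proliferating genes (vertical axis, shifted so that the Control mean is 0) on the 6 Low P/S arrays (red) and the 6 Control arrays (blue), with bars at the diet means. Low P/S means lie below 0 for all 9 members, by 0.20 for Cdca7 to 0.44 for Lgr5, each being the member's own difference less 0.30.

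Marker genes of other cell types were counted beside the members, and their part in the members' values was not tested. The counts below stand beside 17.8% of all tested genes that rose and 7.87% that fell on the deposited scale. All 13 measured villus enterocyte markers were above the dim limit, as the labelled tissue would have, and 6 fell, 1 rose and 6 did not pass. The gene that rose was Fabp1 (difference 0.21, limma adjusted p = 0.0481), named after its values were seen. No gene of this list rose with no filter on dim genes, median centring, array weights, a trended robust prior or an ordinary variance. Nor did any rise without Control array 1, 3 or 6 or without Low P/S array 1, 2, 3, 5 or 6. With quantile normalization 2 rose and 8 fell. Their summed intensity ran from 73505 to 86001 on Low P/S arrays and from 79747 to 106971 on Control arrays, and the brush border aminopeptidase gene Anpep was 1.55-fold lower (limma, adjusted p = 5.07e-05). Paneth cells, the neighbours of the stem cells, had 1 of 8 genes higher and 7 not passing, with sums of 20907 to 25439 and 18803 to 24579. The gene that rose, Pla2g2a (adjusted p = 0.0448), lost its call under 11 of 23 alternatives. Goblet cell genes rose in 2 of 10 cases, enteroendocrine genes in 3 of 10 and tuft cell genes in 0 of 4, and in these lists none fell. Below the dim limit and not tested were 5 of 15 enteroendocrine and 6 of 10 tuft cell genes. The shares that rose among Paneth and goblet cell genes, 12.5% and 20%, were near the 17.8% of all tested genes. The goblet cell count was 1 without Low P/S array 1, 3 or 4 and without Control array 4, and 4 without Control array 2.

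Smoc2, Sox9, Axin2 and Tnfrsf19 can also be expressed outside the epithelium. Of 16 fibroblast and subepithelial genes 5 rose and 11 did not pass, with sums of 4520 to 5731 on Low P/S and 4113 to 5271 on Control arrays, led by the receptor gene Pdgfra (1.35-fold, limma adjusted p = 4.64e-04), and with quantile normalization 3 rose. Among 16 genes of BMP signals and antagonists 1 rose, 2 fell and 13 did not pass, with 4 lower after quantile normalization. Smooth muscle genes passed in 0 of 12 cases, with sums of 6874 to 9817 and 8509 to 12052. Of enteric neuron and glia genes 1 of 6 tested fell, with another 4 below the dim limit, and 2 fell without Control array 1 or without Control array 5. Of endothelial genes 3 of 9 rose, but 1 did so without Low P/S array 1 or 4 and without Control array 4, where the calls of Kdr and Lyve1 ended, and 5 without Low P/S array 5 or Control array 3. Immune markers split, with 4 of 6 T cell genes lower and 6 of 8 macrophage and dendritic cell genes and 2 of 3 B and plasma cell genes higher. Below the dim limit and not tested were 4 of 10 T cell, 3 of 11 macrophage and dendritic and 6 of 9 B and plasma cell genes. The call of Mzb1, a plasma cell gene (limma, adjusted p = 0.0491), ended under 13 of 22 alternatives, among them the removal of any single array other than Low P/S array 2 or 5 or Control array 6 (adjusted p up to 0.114). Circadian clock genes passed in 12 of 15 cases, 10 lower and 2 higher.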

How the data were processed

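The deposited values are linear intensity, 1 for each probe set on each array. RNA was labelled from 500 ng by the whole-transcript sense target method, per the labels' protocols, and the summarization and normalization are not given in the sources used here. Of 34760 probe sets, 21640 named 1 gene in the platform annotation, and for genes with several the brightest by its mean over 12 arrays was taken, which left 19937 genes. Log2 values of 11962 genes at or above the 40th percentile were compared with limma 3.58.1 (R 4.3.3), fitting diet alone, and adjusted by Benjamini-Hochberg over all of them at a threshold of 0.05. Ratios and correlations used Python 3.11.15, NumPy 2.4.6 and SciPy 1.17.1. Promoter sequences are from RefSeq, build GRCm38.p6.

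The members and the 23 gene lists (331 of 358 symbols found) were chosen with earlier results of these data known. The text names all members, list genes among the 4 of smallest p in a list, and the genes most like a member; Wnt3, Lgr4, Lrp5, Lrp6, Nkd1, Nkd2, Apcdd1, Sp5, Myc, Notum, Lef1, Bmi1, Lrig1, Tert, Hopx and Fabp1 were named for their roles after their values were seen. Alternatives were quantile normalization, median centring, array weights, other filters on dim genes, an ordinary variance, a trended robust prior, averaged probe sets, a pseudocount of 16, the replicate number as a block, each array left out, and Control arrays 1 and 2 left out together. The design text calls the arrays biological replicates.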

Additional observations from a re-analysis of the deposited data

How the results depend on the processing

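No member passed as higher in any of the 23 alternatives in which it was tested. The filter at the 60th percentile kept Olfm4, Smoc2, Rnf43 and Cdca7, so Lgr5, Axin2, Znrf3, Sox9 and Tnfrsf19 were tested in 22. On the lower side quantile normalization gave 1 (Rnf43), and leaving out 1 array gave 0 to 1 (Lgr5 without Low P/S array 6). The cause was not tested. Leave-one-out counts over all genes ran from 1610 to 2353 higher and from 788 to 1051 lower. Quantile normalization called 1596 genes lower, against 942 on the deposited scale, and 1853 higher, against 2132. Counts of passing pairs, for ratios and for correlations, were 0 in every alternative run.

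Signs turned for members whose differences lay near 0 and passed in no fit. Smoc2 was -0.046 with quantile normalization, -0.00094 with array weights and -0.019 without Control arrays 1 and 2. Olfm4 was 0.0031 with median centring and 0.10 without Control arrays 1 and 2, and Znrf3 was -0.0065 with array weights. With 1 array left out, Olfm4 ran from -0.087 to 0.066, Axin2 from -0.051 to 0.0013, Znrf3 from -0.0071 to 0.051 and Tnfrsf19 from -0.065 to 0.0054.

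Samples of the same number correlated between -0.11 and 0.42 in their deviations from the diet means, 3 of 6 pairs over 0.1, and 4 of 12 arrays matched their own number best. These values cannot decide whether the numbers are pairs, and the main fit did not use them. With the replicate number as a block 3530 genes passed, against 3074 in the main fit, and 0 members did in either.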
